A study of Mus musculus with 6 samples.

Results

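The NOD-like receptor genes Nod1, Nod2, Nlrc5, Ciita, Nlrc3, Nlrx1 and Nlrp3 and the adaptor kinase gene Ripk2 were examined in splenic regulatory T cells (Treg) of mice that had received a bone marrow graft. The 8 genes were chosen by name from a table of 29199 genes, because the measured level of Nod1 was higher in Treg that had been transferred together with HP1a KO conventional CD4 T cells (Tconv). All 8 were in the table, and all 8 passed the filter on low counts, as did 18321 genes in total. The level of Nod1 therefore chose the list, and its values between the groups are given as a description.

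Recipients were lethally irradiated C57BL/6 mice per the series description, and the methods of the study also allow for hosts of the CD45.1+ B6 strain beside C57BL/6 J. They were given bone marrow of C57BL/6 mice and of semi-allogeneic B6D2F1 mice, naive CD4 Tconv, and Treg expanded ex vivo. The Treg of both groups came from B6 Foxp3-Thy1.1 mice, were of WT genotype, and had been stimulated with anti-CD3/CD28 beads and 500 IU/mL of IL-2 with TGFb for 3 days and then kept without stimulation for 5 to 7 days. The groups differed in the Tconv, which were WT in 3 libraries and HP1a KO in 3 libraries. HP1a is a heterochromatin protein encoded by Cbx5, and the KO Tconv came from mice with a germline deletion obtained by crossing a floxed allele with a CMV-cre transgene, on a mixed genetic background of C57BL/6 and another inbred strain. WT Tconv donors were littermates, and mice were 6 to 12 weeks old per the methods of the study. Treg were sorted 3 weeks after the graft as CD4+ cells that carried Thy1.1, CD45.2 and H-2Kb and lacked CD45.1 and H-2Kd. Whether a library came from 1 recipient or from several was not given in the sources used here, so p-values measure the spread between these libraries. The comparison asks whether Treg differ in expression according to whether the Tconv around them carry HP1a.

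NOD-like receptors (NLRs) are cytosolic proteins that combine a nucleotide-binding domain with leucine-rich repeats. NOD1 and NOD2 bind fragments of bacterial peptidoglycan and recruit the kinase RIPK2, which leads to ubiquitin-dependent activation of NF-kappaB and MAP kinases, whereas NLRP3 assembles an inflammasome that activates caspase-1. Other family members act in the nucleus as transactivators of MHC genes (NLRC5 for class I, CIITA for class II) or are described as negative regulators of innate signalling (NLRC3, NLRX1). They are best known from myeloid and epithelial cells, and NLRC5 and NLRC3 are also expressed in lymphocytes.

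Nod1, Nod2 and Ripk2 encode the receptors and the kinase of 1 signalling axis, so the 250 bases upstream of the most 5′ annotated base of each are shown. They were read from the GRCm39 genome in the direction of transcription, at chr6:54949648-54949897 on the minus strand for Nod1, chr8:89373693-89373942 on the plus strand for Nod2 and chr4:16163797-16164046 on the minus strand for Ripk2. No base is in capitals, because no searched motif matched in these windows.
Nod1: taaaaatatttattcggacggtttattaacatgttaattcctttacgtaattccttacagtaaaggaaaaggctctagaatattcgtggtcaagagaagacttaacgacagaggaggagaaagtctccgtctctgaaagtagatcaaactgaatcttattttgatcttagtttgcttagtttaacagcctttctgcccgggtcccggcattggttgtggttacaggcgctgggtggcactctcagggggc
Nod2: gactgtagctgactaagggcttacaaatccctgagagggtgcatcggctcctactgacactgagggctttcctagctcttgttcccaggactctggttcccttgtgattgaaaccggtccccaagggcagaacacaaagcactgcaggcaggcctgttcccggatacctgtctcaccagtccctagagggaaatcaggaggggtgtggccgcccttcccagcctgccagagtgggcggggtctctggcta
Ripk2: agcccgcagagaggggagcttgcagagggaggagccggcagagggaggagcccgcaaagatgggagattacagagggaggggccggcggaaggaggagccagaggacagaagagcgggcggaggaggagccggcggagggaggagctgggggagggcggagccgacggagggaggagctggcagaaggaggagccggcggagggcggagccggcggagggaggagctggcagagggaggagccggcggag
The Nod1 window was AT-rich, with a GC content of 42.0% and 9 CpG dinucleotides. That of Nod2 had 58.4% GC and 5 CpG, and that of Ripk2, built of purine-rich repeats, had 72.4% GC and 19 CpG, beside a median of 6 CpG over the windows of 21770 protein-coding genes. Motifs were searched on both strands. A kappaB consensus was present in 4.72% of these windows, the interferon-gamma-activated site TTCNNNGAA in 7.82%, the interferon-stimulated response element GAAANNGAAA in 3.44% and an AP-1 consensus in 4.14%. Among the 8 genes, the searched letters were found only upstream of Nlrp3 (a kappaB match, GGGAACCCCC, 185 to 176 bases upstream) and of Nlrx1 (TTCCTTGAA, 125 to 117 bases upstream). A match is a description of the sequence and was not tested as a binding site.

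Library totals lay between 87421755 and 119078882 counts. Marker genes of Treg were abundant throughout, and Foxp3 had 153.6 to 251.7 counts per 1e+06 counts (CPM). Replicate 3 of Treg with WT Tconv stood apart in markers of other cells. Its summed level of 10 neutrophil markers was 1892 CPM, beside 43.8 to 230.1 CPM in the other 5 libraries, led by S100a9 at 745.2 CPM. Its sum of 10 macrophage or monocyte markers was 225.8 CPM, beside 22.9 to 62.5 CPM, led by Lyz2 at 167.8 CPM, and that of 7 red cell genes was 5623 CPM, beside 374 to 682.5 CPM. Of these 3 lists, markers at 0 in at least 1 library were Cd163 and Marco. The sums of 5 plasma cell markers (12.5 CPM, beside 0.994 to 4.26 CPM) and 5 NK cell markers (29.5 CPM, beside 12.7 to 16.7 CPM) were also highest there. Among those, Mzb1, Tnfrsf17 and Ncr1 were at 0 in at least 1 library. Log2 fold changes of named genes that changed sign or moved by over 1.5 times without this library are given both ways. Replicate 2 of Treg with HP1a KO Tconv also stood apart. The chi-square statistic over genes, divided by its degrees of freedom, was 140.1 and 174 against the other libraries of its group and 29.02 between those. Of the Treg markers, Foxp3 (153.6 CPM), Il2ra (120.6 CPM), Cd4 (687.9 CPM) and Cd3e (146.5 CPM) were lowest of all libraries in this replicate 2. Tnfrsf18 was highest there (578.2 CPM), and Ctla4, Ikzf2 and Thy1 were neither. Cbx5 was deleted in the co-injected Tconv and not in the Treg, so its level in Treg, 135.5 ± 18.5 CPM with WT Tconv and 120.1 ± 12.01 CPM with HP1a KO Tconv (SD, n = 3 each), does not check the labels.

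The 8 genes spanned almost 3 orders of magnitude in these Treg when compared per exonic length, as TPM (counts per exonic length, scaled to the same sum in every library) over the 6 libraries. Nlrc5 was the most abundant, at 507.4 ± 39.6 TPM (SD, n = 6), a level above that of 98.57% of the genes tested. Nlrc3 followed at 84.7 ± 10.5 TPM and Ripk2 at 20.3 ± 1.90 TPM. Nod1 was at 12.5 ± 2.98 TPM, Nlrx1 at 11.97 ± 0.885 TPM and Nod2 at 7.30 ± 1.21 TPM, near the middle of the genes tested (54.59%, 53.95% and 45.26% of them were lower). Ciita (0.749 ± 0.244 TPM) and Nlrp3 (0.623 ± 0.759 TPM) were low. Neighbours in this order did not overlap between libraries, except Nod1 with Nlrx1 and Ciita with Nlrp3. Nod1 exceeded Nlrx1 in 3 of 6 libraries, those with HP1a KO Tconv, and Ciita exceeded Nlrp3 in 5 of 6, the exception being replicate 3 of Treg with WT Tconv.

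Nod1 (ENSMUSG00000038058, chromosome 6, 54900927 to 54949647, minus strand, GRCm39) had 13.9, 14.7 and 15.0 CPM in replicates 1 to 3 of Treg with WT Tconv and 20.2, 21.0 and 23.8 CPM in those of Treg with HP1a KO Tconv. The groups did not overlap, and all libraries with HP1a KO Tconv lay above all those with WT Tconv. Group means were 14.5 ± 0.592 and 21.7 ± 1.89 CPM (SD, n = 3 each), a ratio of 1.49, and the log2 fold change was 0.58 with an SE of 0.0929. The deposited counts behind these values were 1334 to 2102. With replicate 3 of Treg with WT Tconv left out, the log2 fold change was 0.60. In bulk RNA, a change in the share of cells that express a gene and a change in RNA per cell cannot be told apart.

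Nod2 (ENSMUSG00000055994, chromosome 8, 89373943 to 89415102, plus strand), the receptor for muramyl dipeptide, had 7.42, 8.59 and 7.81 CPM with WT Tconv and 9.45, 10.9 and 9.68 CPM with HP1a KO Tconv. Again no library of one group reached into the range of the other. Means were 7.94 ± 0.599 and 10.03 ± 0.808 CPM, with a log2 fold change of 0.34 (SE 0.114). In edgeR's quasi-likelihood test this difference had an unadjusted p of 0.0177 and did not pass after adjustment over all genes (adjusted p = 0.252). Of its exonic length, 13.71% is shared with Gm64159 on the opposite strand, and whether counting used the strand was not given in the sources used here.

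Ripk2 (ENSMUSG00000041135, chromosome 4, 16121400 to 16163796, minus strand), the kinase that both receptors recruit, was on the other side. It had 32.2, 30.2 and 31.8 CPM with WT Tconv and 25.8, 29.5 and 25.9 CPM with HP1a KO Tconv, so that all 3 libraries with HP1a KO Tconv were lower, replicate 2 by a small margin. Means were 31.4 ± 1.06 and 27.1 ± 2.10 CPM, and the log2 fold change was -0.22 with an SE of 0.0805. The edgeR test gave an unadjusted p of 0.0265 and an adjusted p of 0.285. The receptor genes and the kinase gene of the axis thus had log2 fold changes of opposite sign.

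**Figure D1:**
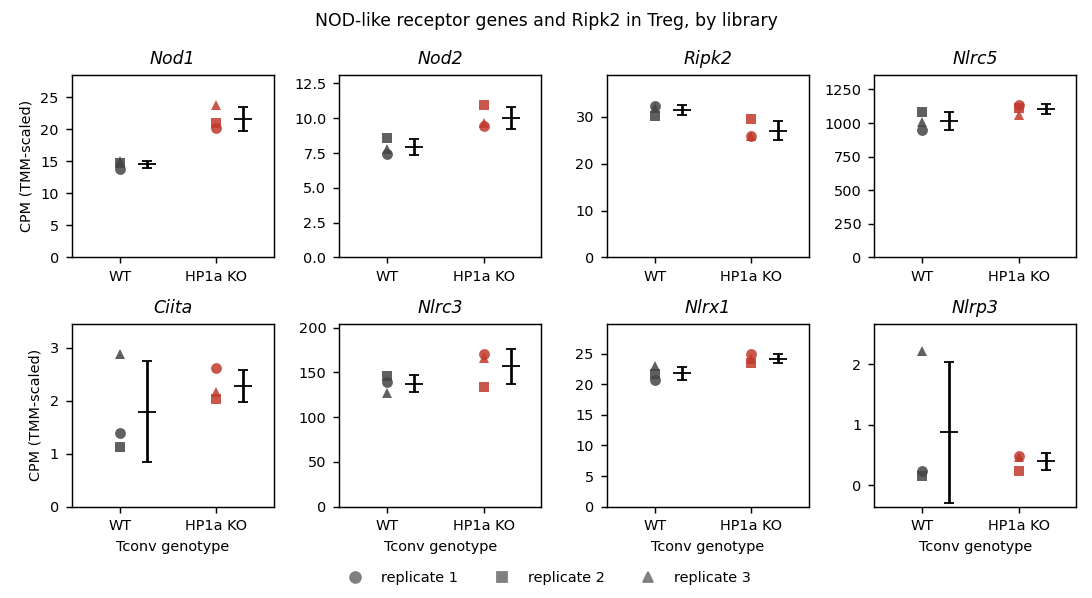
Level of each gene in every library, in TMM-scaled CPM (each panel has its own vertical axis), for Treg with WT Tconv (grey) and HP1a KO Tconv (red); symbols mark the replicate, and the bars beside them are the group mean and SD (n = 3). The groups do not overlap for Nod1, Nod2 and Nlrx1 (higher with HP1a KO Tconv) and Ripk2 (lower), and 1 library, WT replicate 3, holds the high value of Nlrp3.

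Nlrc5 (ENSMUSG00000074151, chromosome 8, 95160984 to 95253900, plus strand), the transactivator of MHC class I genes, had 950.2, 1083 and 1006 CPM with WT Tconv and 1134, 1114 and 1063 CPM with HP1a KO Tconv. The lowest library with HP1a KO Tconv lay below the highest with WT Tconv, so the groups overlapped. Means were 1013 ± 66.6 and 1103 ± 36.7 CPM, and the log2 fold change of 0.12 (SE 0.0763) did not pass in edgeR (adjusted p = 0.504). Among edgeR fits that left out 1 library, it was highest, at 0.19 (adjusted p = 0.461), when WT replicate 2 was dropped. It was lowest, at 0.09 (adjusted p = 0.7065), when WT replicate 1 was dropped.

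Ciita (ENSMUSG00000022504, chromosome 16, 10297923 to 10347694, plus strand), the class II counterpart, was low, with 108 to 337 counts per library. Its levels were 1.39, 1.12 and 2.88 CPM with WT Tconv and 2.62, 2.04 and 2.16 CPM with HP1a KO Tconv. Replicate 3 of Treg with WT Tconv was the highest of all 6 libraries and the other 2 of that group were the lowest. The log2 fold change was 0.34 (SE 0.348, adjusted p = 0.690 in edgeR) with all libraries and 0.86 (SE 0.225, adjusted p = 0.380) without that replicate. It was 0.20 (SE 0.396) without replicate 1 and 0.10 (SE 0.324) without replicate 2 of the same group. Replicate 3 of that group had the highest sum of 9 B cell markers (30.0 CPM, beside 16.8 to 23.1 CPM), of which Cr2 and Fcer2a were at 0 in at least 1 library. The sum of 8 dendritic cell markers did not set this replicate apart (64.6 CPM, beside 50.6 to 62.2 CPM). Cst3 and Zbtb46 made up most of that sum and were not highest there, whereas Itgax was (2.40 CPM, beside 0.155 to 0.668 CPM), and Flt3, Clec9a, Siglech and Cd209a were at 0 in at least 1 library. The part of such cells in the level of Ciita was not tested. Of the exonic length of Ciita, 5.73% is shared with Dexi on the opposite strand, which had a mean of 11.1 CPM, above every library of Ciita.

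Nlrc3 (ENSMUSG00000049871, chromosome 16, 3762871 to 3794496, minus strand), described as a brake on T cell activation and on STING signalling, had 139, 146 and 127.2 CPM with WT Tconv and 170.3, 134.1 and 166 CPM with HP1a KO Tconv. Replicate 2 with HP1a KO Tconv lay within the range of the other group. The log2 fold change was 0.19 (SE 0.102, adjusted p = 0.442 in edgeR). Among edgeR fits that left out 1 library, it was highest, at 0.29 (SE 0.0702, adjusted p = 0.154), without that replicate. It was lowest, at 0.14 (SE 0.1115, adjusted p = 0.6765), when WT replicate 3 was dropped.

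Nlrx1 (ENSMUSG00000032109, chromosome 9, 44164011 to 44179896, minus strand), which encodes a mitochondrial family member, had 20.8, 21.7 and 22.9 CPM with WT Tconv and 24.9, 23.4 and 24.1 CPM with HP1a KO Tconv. The groups did not overlap, but the gap between them was smaller than the spread within either. The log2 fold change was 0.15 (SE 0.0766, adjusted p = 0.430 in edgeR). An 8.74% share of its exonic length overlaps Gm10686 on the opposite strand.

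Nlrp3 (ENSMUSG00000032691, chromosome 11, 59432394 to 59457782, plus strand), the inflammasome sensor, was the least abundant. It had 23, 15 and 260 counts with WT Tconv and 44, 23 and 41 counts with HP1a KO Tconv, or 0.239, 0.155 and 2.22 CPM against 0.484, 0.230 and 0.464 CPM. Replicate 3 of Treg with WT Tconv was 9.28-fold above the median of the other 5 libraries. With all libraries the log2 fold change was -1.16 (SE 1.10, adjusted p = 0.673 in edgeR), and without that replicate it was 0.99 (SE 0.512, adjusted p = 0.501), so that its sign rests on 1 library. Nlrp3 and the macrophage or monocyte and neutrophil sums all had their highest value in that library. Next for all of them came replicates 1 and 3 of Treg with HP1a KO Tconv. The macrophage or monocyte sum was 55.7 and 62.5 CPM in these, beside 22.9 to 29.0 CPM in the rest. The part of these sums in the level of Nlrp3 was not tested. Nod1, in contrast, had 15.0 CPM in WT replicate 3, close to the 13.9 and 14.7 CPM of the other 2 libraries of that group.

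**Figure D2:**
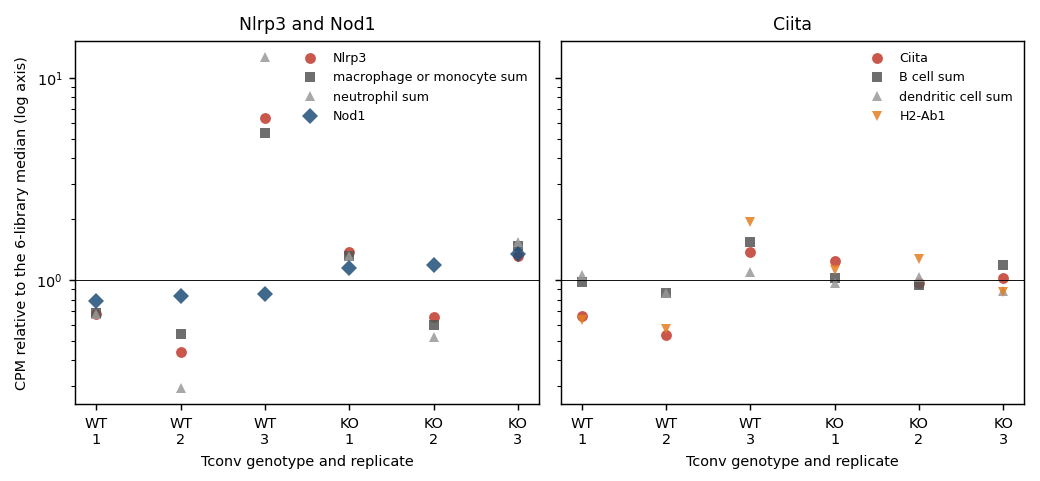
CPM in each library relative to the median of the 6 libraries (log axis), by Tconv genotype and replicate (KO, HP1a KO), for Nlrp3 and Nod1 with the macrophage or monocyte and neutrophil marker sums (left) and for Ciita with the B cell and dendritic cell sums and H2-Ab1 (right). Nlrp3 and both myeloid sums peak in WT replicate 3, where Nod1 lies with the other WT libraries.

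Across the 8 genes, edgeR called 0 at an adjusted p under 0.05, as it called 0 of 18321 genes tested (0%). At an unadjusted p under 0.05, 3 members stood out, Nod1 and Nod2 higher and Ripk2 lower, against 14.5% of all genes in either direction. Groups did not overlap for 3 members that were higher and 1 that was lower with HP1a KO Tconv, whereas 11.5% of all genes were higher and 11.6% lower without overlap. Log2 fold changes were positive for 6 of 8 members, with a median of 0.17 beside -0.01 over all genes. Without replicate 3 of the WT group they were positive for 7 of 8, with a median of 0.25 beside 0.01. DESeq2 called 526 of the 12097 genes that it gave an adjusted p (4.35%), and Nod1 was the sole one among the 7 members with such a value. In edgeR, Nlrp3 was the sole member with an absolute log2 fold change over 1, with the dependence on 1 library given above. Since Nod1 was picked on this contrast, nothing is read from its place in these counts.

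**Figure D3:**
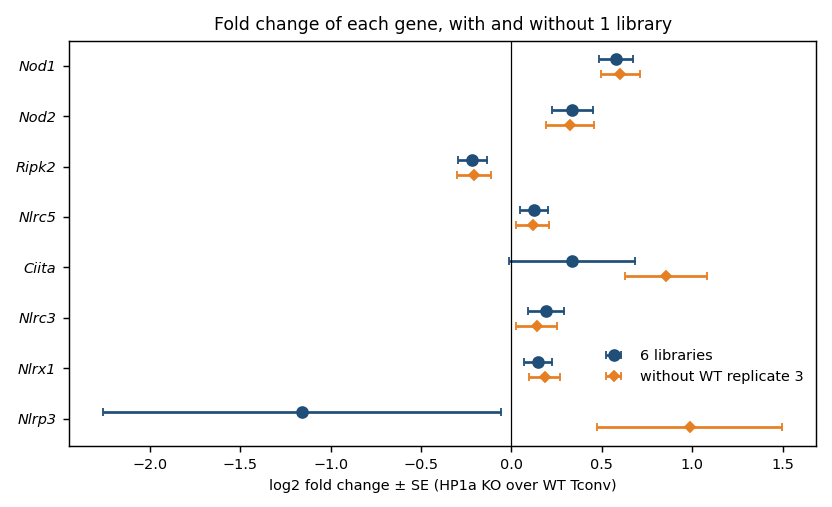
Log2 fold change of each gene, HP1a KO over WT Tconv, with its SE from edgeR, using all 6 libraries (circles) and without WT replicate 3 (diamonds). Removing that library turns Nlrp3 from -1.16 to 0.99 and moves Ciita from 0.34 to 0.86, while the other 6 genes keep values close to those from all libraries.

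The members were also compared with Nod1 by the Pearson correlation of log2 CPM over the 6 libraries, which share the group difference that chose Nod1. It was 0.86 for Nod2, 0.84 for Nlrx1, 0.66 for Nlrc5, 0.59 for Nlrc3 and 0.48 for Ciita. It was -0.02 for Nlrp3 and -0.86 for Ripk2. Among 8847 genes with a mean of at least 10 CPM, the 5 most like Nod1 were Lmf1, Cntrob, Emc10, Ifnar2 and Spout1, all with a correlation of 0.99, and 2.97% of these genes had a correlation over 0.9. Ifnar2, a subunit of the type I interferon receptor, had 57.0, 57.4 and 56.8 CPM with WT Tconv and 65.5, 67.7 and 72.7 CPM with HP1a KO Tconv. These 5 genes were picked by their likeness to Nod1, so their levels between the groups are a description.

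The other genes of these pathways were described from lists made by function. Of 99 listed genes, 88 were in the table and 82 were tested. None of the 82 passed in edgeR at an adjusted p under 0.05. At an unadjusted p under 0.05, 12 of the 82 were higher and 4 lower. Over all genes these shares were 6.98% higher and 7.52% lower. DESeq2 called 6 of the 73 that it gave an adjusted p, against 4.35% of the 12097 genes with one. Their median log2 fold change was 0.06.

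Downstream of NOD1 and NOD2, 25 genes of ubiquitin ligases, deubiquitinases, kinase components, adaptors and other partners were tested. At an unadjusted p under 0.05, 3 were higher and 3 lower, against 14.5% of all genes in either direction, with a median log2 fold change of -0.07. Tab1, which encodes an activating subunit of the kinase TAK1, had 16.2, 16.4 and 17.4 CPM with WT Tconv and 21.9, 22.1 and 21.4 CPM with HP1a KO Tconv, a log2 fold change of 0.39 (SE 0.0764, adjusted p = 0.209 in edgeR). Tab3, whose product links TAK1 to ubiquitin chains, had 31.7, 35.0 and 39.5 CPM with WT Tconv and 27.1, 24.4 and 26.6 CPM with HP1a KO Tconv, a log2 fold change of -0.44 (SE 0.0968, adjusted p = 0.209). Both genes separated the groups, in opposite directions. Among the 25 genes, groups did not overlap for 3 that were higher and 5 that were lower. Over all genes these shares were 11.5% and 11.6%. The genes of the ubiquitin ligases TRAF2 and TRAF6 also lay apart in opposite directions. Traf2 was at 81.8 ± 5.31 against 105.9 ± 9.15 CPM and Traf6 at 263 ± 10.9 against 206.9 ± 21.9 CPM. Traf6 was named after its values were seen, so setting it beside Traf2 is a description. The log2 fold change was 0.37 for Traf2 and -0.35 for Traf6, each with an adjusted p of 0.209 in edgeR. Of the ligases that ubiquitinate RIPK2, Xiap had a log2 fold change of -0.10 (adjusted p = 0.588) and Birc3 one of -0.09 (adjusted p = 0.666).

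Of the transporters and enzymes that handle muropeptides, 5 were tested. Slc15a3, an endolysosomal peptide transporter, had 33.8, 34.9 and 40.5 CPM with WT Tconv and 30.5, 26.9 and 21.4 CPM with HP1a KO Tconv, with a log2 fold change of -0.47 (SE 0.135, adjusted p = 0.224 in edgeR). All libraries with HP1a KO Tconv were lower. The related Slc15a4 was at -0.09 (adjusted p = 0.614), or -0.05 without WT replicate 3, and the lysosomal transporter gene Slc46a3 at 0.19 (adjusted p = 0.392).

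Of 24 other NLR genes listed, 14 were in the table and 9 were tested, with a median log2 fold change of 0.29. That median is the value of Naip6, described below. Naip1, Nlrp12, Nlrp10 and Nlrp1a were near the floor, with group means of at most 0.4525 CPM. Nlrp12 turned from -1.23 to 0.45 without WT replicate 3. Groups did not overlap in 5 of the 9, all higher with HP1a KO Tconv, beside 11.5% of all genes, and none passed in edgeR. The 5 include Nlrc4, which was low (0.904 against 1.12 CPM), and Naip5 and Naip6, whose reads are not independent. The NAIP proteins are receptors for bacterial flagellin and secretion system subunits. Naip6 had 28.6 ± 1.35 against 35.0 ± 1.41 CPM (log2 fold change 0.29, adjusted p = 0.209) and Naip2 had 72.4 ± 2.87 against 85.4 ± 4.72 CPM (0.24, adjusted p = 0.224). Values of Naip6 are uncertain, since 64.7% of its transcript aligns to Naip5 at 96.9% identity and estimated counts can move between such copies. Nlrp1b, which encodes another inflammasome sensor, had 6.23, 5.64 and 6.28 CPM with WT Tconv and 7.47, 7.78 and 9.21 CPM with HP1a KO Tconv (log2 fold change 0.43, adjusted p = 0.229).

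Among 13 inflammasome components and substrates, P2rx7, the ATP-gated channel upstream of NLRP3, had 138.9, 173.4 and 130.6 CPM with WT Tconv and 208.7, 211.7 and 204.7 CPM with HP1a KO Tconv. Its levels with HP1a KO Tconv were close together and above all those with WT Tconv, with a log2 fold change of 0.50 (SE 0.104, adjusted p = 0.209 in edgeR). The adaptor gene Pycard was at 118.3 ± 11.7 against 134.5 ± 1.36 CPM (log2 fold change 0.19, adjusted p = 0.350), Casp8 at 0.16 (adjusted p = 0.406) and Casp1 at 0.10 (adjusted p = 0.662). Without WT replicate 3, these log2 fold changes were 0.11 for Pycard, 0.09 for Casp8 and 0.03 for Casp1. The transcripts of the adaptor and of the caspase were thus well detected in Treg, where Nlrp3 itself was near the lower end of the genes tested. For the partners of NLRX1 and NLRC3, log2 fold changes were positive in all 6 genes tested, as in 8890 of all 18321 genes. None had an unadjusted p under 0.05, and the groups overlapped for all 6. The values were 0.13 for Sting1, 0.09 for Tufm, 0.18 for Fastkd5 and 0.12 for Mavs (adjusted p = 0.620 in edgeR).

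For the MHC transactivators, the lists held the DNA-bound RFX and associated factors and the target genes. Of 7 enhanceosome genes, Rfxank was at 28.4 ± 1.45 against 32.4 ± 2.34 CPM (log2 fold change 0.19, adjusted p = 0.342 in edgeR), Rfxap at -0.17 and Rfx5 at 0.10. The 8 class I genes driven by NLRC5 all had positive log2 fold changes, with a median of 0.15 beside -0.01 over all genes, and none passed. All 8 were highest in replicate 2 of Treg with HP1a KO Tconv, the library that stood apart in its group. The other levels of H2-K1 in that group, 4132 and 3766 CPM, lay on either side of those with WT Tconv (3927 to 4103 CPM). Those of H2-D1, 2721 and 2344 CPM, did so too (2510 to 2589 CPM with WT Tconv). Tap1, a subunit of the peptide transporter of antigen processing, had 455.6, 473.5 and 473.4 CPM with WT Tconv and 522.3, 632.5 and 495.9 CPM with HP1a KO Tconv (log2 fold change 0.24, adjusted p = 0.324). Tap2 was at 0.18 (adjusted p = 0.333), the immunoproteasome subunit gene Psmb8 at 0.19 (adjusted p = 0.350) and B2m at 0.06 (adjusted p = 0.747).

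The 9 class II genes driven by CIITA had a median log2 fold change of 0.04, with 5 of 9 positive. Without WT replicate 3 the median was 0.36, beside 0.01 over all genes, with 9 of 9 positive and none past the test in edgeR. In the remaining libraries, the macrophage or monocyte sum was 29.0 and 22.9 CPM with WT Tconv. It was 55.7, 25.4 and 62.5 CPM with HP1a KO Tconv. The neutrophil sum was 102.1 and 43.8 CPM against 197.3, 78.4 and 230.1 CPM. The dendritic cell sum was 62.2 and 50.6 CPM against 56.7, 61.25 and 51.8 CPM. The part of such cells in the class II levels was not tested. H2-DMa, which encodes a subunit of the peptide-loading protein H2-DM, had 25.3, 28.6 and 29.8 CPM with WT Tconv and 32.5, 42.2 and 32.2 CPM with HP1a KO Tconv (log2 fold change 0.35, adjusted p = 0.257 in edgeR). H2-Oa, a subunit of its inhibitor, was at 0.31 (adjusted p = 0.297) and H2-Ob at 0.15 (adjusted p = 0.589), or at 0.05 without WT replicate 3. The invariant chain gene Cd74 was at -0.03 (adjusted p = 0.973), and its sign turned to 0.10 without that library. The class II chain gene H2-Ab1, like Ciita, was highest in replicate 3 of the WT group, with 3.75, 3.396 and 11.5 CPM with WT Tconv and 6.67, 7.56 and 5.19 CPM with HP1a KO Tconv. Its log2 fold change was 0.06 (adjusted p = 0.970) with all libraries and 0.86 (adjusted p = 0.380) with WT replicate 3 left out.

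**Figure D4:**
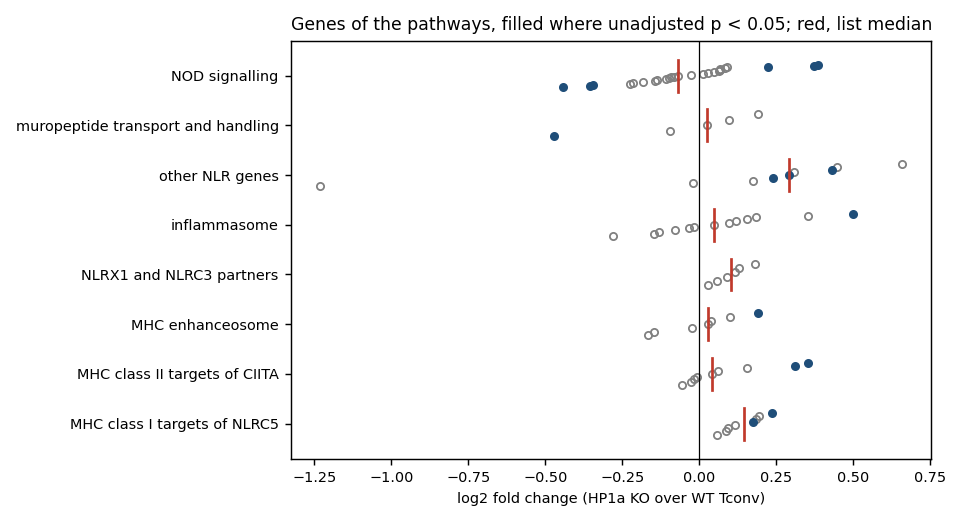
Log2 fold change (HP1a KO over WT Tconv) of the 82 tested pathway genes, 1 point per gene in rows by list; filled points have an unadjusted p under 0.05 in edgeR, and red bars are list medians. NOD signalling genes lie on both sides of 0, while the 8 class I targets of NLRC5 all lie above it. All 8 had their highest level in the HP1a KO library that stood apart in its group.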

How the data were processed

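Total RNA of sorted Treg was sequenced in 6 libraries. Per the study's methods, the authors made stranded libraries, removed adapters, aligned reads to GRCm39 (Ensembl annotation) with STAR and quantified genes with Salmon. They deposited estimated counts as whole numbers, without normalization. Ambiguous reads are shared between genes by a model, which matters for near-identical copies.

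Here, 18321 genes that passed filterByExpr were tested in edgeR (version 4.0.16) by glmQLFit and glmQLFTest (robust = TRUE, TMM, group as sole term) in R version 4.3.3, with Benjamini-Hochberg adjustment over all of them at 0.05. CPM are scaled by TMM. TPM were computed from the counts and the exonic lengths of a GENCODE annotation, which matched 28854 of 29199 identifiers. Correlations used log2 CPM with a prior count of 2. The p-values of Nod1 are not given, since it chose the list. Alternatives were DESeq2 version 1.42.0, limma-voom version 3.58.1, other scalings and filters, the replicate number as a block, leaving out each library in turn and, added after seeing the data, DESeq2 with WT replicate 3 left out. The genes and lists were chosen with earlier results of these data known. Named pathway genes were the 3 with the smallest unadjusted p in each list and Xiap, Birc3, Pycard, Casp1, Mavs, Cd74, H2-Ab1 and B2m. Traf6, which fell outside this rule, was added after its values were seen. Naip1, Naip5, Nlrc4, Nlrp1a, Nlrp10, Nlrp12, H2-K1, H2-D1, H2-Aa and H2-Eb1 are also named and fell outside it. No replicates agreed within sampling noise.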

Additional observations from a re-analysis of the deposited data

How the results depend on the processing

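The number of genes passing an adjusted p under 0.05 was 0 in edgeR and in limma-voom, 526 in DESeq2, 1 with upper quartile normalization, 38 without the count filter, 1 with the replicate block, and 0 to 2 when 1 library was left out. Of the 8 genes, 1 passed in DESeq2 and 1 without the filter, in both cases Nod1, and 0 passed with the replicate block or without any 1 library. Of the pathway genes, 6 passed in DESeq2 (Tab1, Traf2 and P2rx7 higher, Slc15a3, Traf6 and Tab3 lower) and 0 in the other planned fits, 0 to 0 over those leaving out 1 library. DESeq2 with WT replicate 3 left out, chosen after seeing the data, called 181 genes, of which 1 was a member (Nod1) and 5 were pathway genes (Tab1, P2rx7, H2-Aa, H2-Eb1 and H2-Ab1). The cause of these differences was not tested. Same-numbered libraries had correlations of -0.042, 0.182 and 0.117 over genes, so the numbers were not taken as pairs.

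Over 16 alternatives and 8 genes, 2 of 128 log2 fold changes changed sign, both of Nlrp3, at 0.99 without replicate 3 of Treg with WT Tconv in edgeR and in DESeq2. The log2 fold change of Nod1 ranged from 0.51 to 0.64, that of Nod2 from 0.27 to 0.41, that of Nlrc3 from 0.13 to 0.29, that of Nlrc5 from 0.09 to 0.19, that of Nlrx1 from 0.13 to 0.18, that of Ripk2 from -0.28 to -0.17 and that of Ciita from 0.10 to 0.86, the first without replicate 2 and the last without replicate 3 of Treg with WT Tconv. That of Nlrp3 was lowest, at -1.64, without replicate 2 of Treg with WT Tconv. Counts of 15 to 44 for Nlrp3 in 5 libraries limit its precision.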
